A study of Tetranychus cinnabarinus with 8 samples.

Results

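The comparison described here set curcumin-treated against solvent-treated mites at 48 h posttreatment. Its members were the gene models above a length limit with estimated reads in any of the 4 libraries of this time point, of which there were 15274, out of 15764 gene models of every length in the whole series of 8 libraries. The limit was the length of the shortest gene model listed in the second curcumin library of 24 h, which had the highest such length of the 8 libraries, because shorter models were not listed evenly from library to library. Of the 15274 gene models, 12193 passed edgeR's filter on low counts and were tested.

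The mites were adult females of a susceptible strain of T. cinnabarinus, the carmine spider mite, used as 2-day-old adults. The solvent group was sprayed with water containing Tween 80 and acetone, and the curcumin group with curcumin at 2.64 mg/mL in that solvent. Each group had 2 biological replicates, each a pool of mites from several Petri dishes of an independent experiment, and the 24 h libraries used beside them were made the same way. RNA was taken only from mites that were alive at collection, so the curcumin libraries stand for survivors. Reads were mapped to the genome of the sister species T. urticae, and the identifiers used below, such as tetur32g02000, are gene models of that genome. RNA came from whole mites, so fewer cells of a type and less RNA per cell cannot be told apart. Tissue markers were not checked, because gene names were at hand only for the genes in the study's own tables.

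Curcumin is a polyphenol of turmeric with acaricidal activity. In animals that face a toxic compound, transcripts often change in groups that serve detoxification, protein quality control and reproduction. The endoplasmic reticulum is where secreted and membrane proteins are folded with the help of chaperones such as calnexin, and damaged ones are marked for degradation. Vitellogenin is the precursor of egg yolk, made in large amounts by laying females. Calmodulin and phospholipase C carry calcium signals.

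At 48 h, 3 genes that the study lists for protein processing in endoplasmic reticulum were called lower after curcumin treatment, and 1 gene was called higher. On the log2 scale tetur32g02000 fell by 1.95, tetur03g00110 fell by 2.08 and tetur03g00120 fell by 1.51, and tetur01g04020 rose by 1.32. The quasi-likelihood test of edgeR called these 4 genes at an FDR of 0.05, which is 0.0328% of the 12193 genes tested. DESeq2 called 70 genes (0.574%), 28 higher (0.230%) and 42 lower (0.344%), including all 4. When the first 48 h curcumin library was dropped, edgeR called 0 of these 4 genes and 1 other, the guanylate kinase gene tetur07g05920, and when the second was dropped it called 0 genes. It called 7 genes, 3 of the 4 among them, when the first 48 h solvent library was dropped, and 4 genes, 2 of the 4 among them, when the second was.

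The reads on gene models over the length limit came to 8026057 and 8028689 in the solvent libraries and 8259139 and 8603893 in the curcumin libraries. The log2 fold changes were centred on 0.00, with a standard deviation of 0.51 across genes. Only 226 genes were above a log2 fold change of 1 and 260 below -1. Between replicates the median absolute log2 difference per gene was 0.236 for solvent and 0.206 for curcumin, while that between the group means was 0.155. The typical difference between treatments was smaller than that between libraries of a treatment, although a mean of 2 libraries also varies less than 1 library. An unadjusted p under 0.05 was found for 949 genes (7.78%), 415 on the higher side (3.40%) and 534 on the lower side (4.38%).

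The list for protein processing in endoplasmic reticulum holds 7 genes, and the study chose it on these libraries, so its direction is not independent evidence. Of the 7, 6 had a negative log2 fold change and edgeR called 3 of these lower (0.0246% of all genes tested were called lower). All 6 had an unadjusted p under 0.05 on the lower side, against 4.38% of all genes. The same 6 had both curcumin libraries below both solvent libraries in CPM after TMM scaling, against 17.3% of all genes. The median log2 fold change was -2.02 over the list and 0.00 over all genes tested.

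tetur32g02000, a gene model of 734 bp described by the study as a hypothetical protein, had an RPKM of 110.8 and 102.2 in the solvent libraries and 26.1 and 28.6 in the curcumin libraries. Each pair of replicates lay close together and the groups were far apart. The means were 106.5 ± 6.05 (SD, n = 2) and 27.4 ± 1.72 (SD, n = 2), and the log2 fold change of -1.95 ± 0.19 (standard error) was called at an adjusted p of 0.0113 by edgeR.

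tetur03g00110, of 811 bp, had an RPKM of 36.8 and 60.1 in the solvent libraries and 10.1 and 12.6 in the curcumin libraries. The solvent libraries differed more from each other than the curcumin libraries did, without reaching them. The fitted log2 change was -2.08 ± 0.20 (standard error), at an adjusted p of 0.0113 by edgeR.

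tetur03g00120, of 893 bp, had an RPKM of 43.8 and 52.6 with solvent and 15.8 and 17.9 with curcumin. The change was smaller than in the other 2 genes, at -1.51 (standard error 0.15, adjusted p = 0.0113 by edgeR). The calls of all 3 genes were lost without the first curcumin library at 48 h (adjusted p = 0.103 for each by edgeR) and without the second (adjusted p = 0.0772). tetur03g00120 also lost its call without the second solvent library at 48 h (adjusted p = 0.0774).

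The next 2 genes of the list missed the threshold narrowly. tetur08g07940 had an RPKM of 34.2 and 56.7 with solvent and 7.90 and 11.1 with curcumin, a log2 fold change of -2.24 (adjusted p = 0.0528 by edgeR). tetur03g00210 had an RPKM of 30.7 and 46.6 against 7.70 and 11.2, a log2 fold change of -2.02 (adjusted p = 0.0528). In both genes every curcumin library was below every solvent library, and DESeq2 gave them adjusted p of 4.94e-11 and 4.9e-09. tetur03g00200 was expressed at a lower level, with an RPKM of 5.21 and 10.5 against 0.716 and 2.84, and its log2 fold change of -2.13 had an adjusted p of 0.293 by edgeR.

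The member of the list with a known product, calnexin (tetur611g00020), a chaperone that binds newly made glycoproteins, did not go with the others. Its RPKM was 34.5 and 0 in the solvent libraries and 55.1 and 24.2 in the curcumin libraries. The groups overlapped, with the first solvent library inside the range of the curcumin libraries, and the log2 fold change was 1.19 (adjusted p = 0.928 by edgeR) with all libraries and 0.17 without the second solvent library. The other 6 members carry no product name in the study's tables beyond hypothetical protein.

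**Figure D1:**
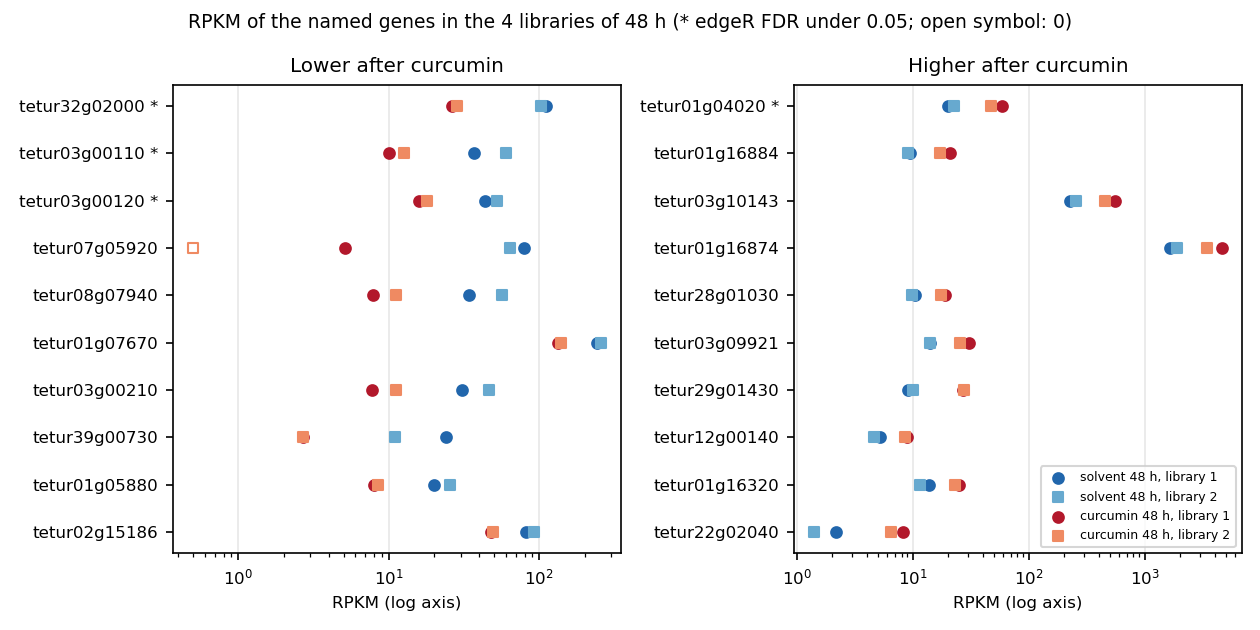
RPKM on a log axis in the 2 solvent (blue) and 2 curcumin (red and orange) libraries of 48 h for the 10 lower and 10 higher genes with the smallest p among those with at least 20 reads on average and no overlap; an open symbol stands for 0 and a star for an edgeR FDR under 0.05. In tetur32g02000 the solvent libraries sit at 110.8 and 102.2 and the curcumin libraries at 26.1 and 28.6.

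Of the 6 lower genes in the list, 4 carry identifiers close together, from tetur03g00110 to tetur03g00210. In the order of identifiers, which was used here in place of positions, 5 gene models of this stretch were tested. All 5 had an unadjusted p under 0.05 on the lower side (4.38% of all genes), with log2 fold changes from -2.13 to -1.51. The fifth is tetur03g00130, of 2023 bp, which the study does not list, with an RPKM of 1.74 and 2.09 against 0.473 and 0.862 and a log2 fold change of -1.51 (adjusted p = 0.270 by edgeR).

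The change stopped at both ends of the stretch. tetur03g00100, the next tested identifier before it, had an RPKM of 465.6 and 430.0 against 397.2 and 403.9, a log2 fold change of -0.15. tetur03g00220, the next after it, had a log2 fold change of 0.04. Of the 15 other tested gene models around it 0 had an unadjusted p under 0.05 (7.78% of all genes). Their log2 fold changes lay between -0.40 and 0.74.

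No such run was seen around tetur08g07940 and tetur32g02000, the other lower genes of the list. The tested gene models within 10 identifiers of each had a median log2 fold change of 0.02. On the lower side 0 of 18 and 1 of 15 had an unadjusted p under 0.05, against 4.38% of all genes. Whether the genes of the run share sequence was not tested, and how the authors' counting placed reads that match several genes is unknown, so their values may not be separate measurements.

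**Figure D2:**
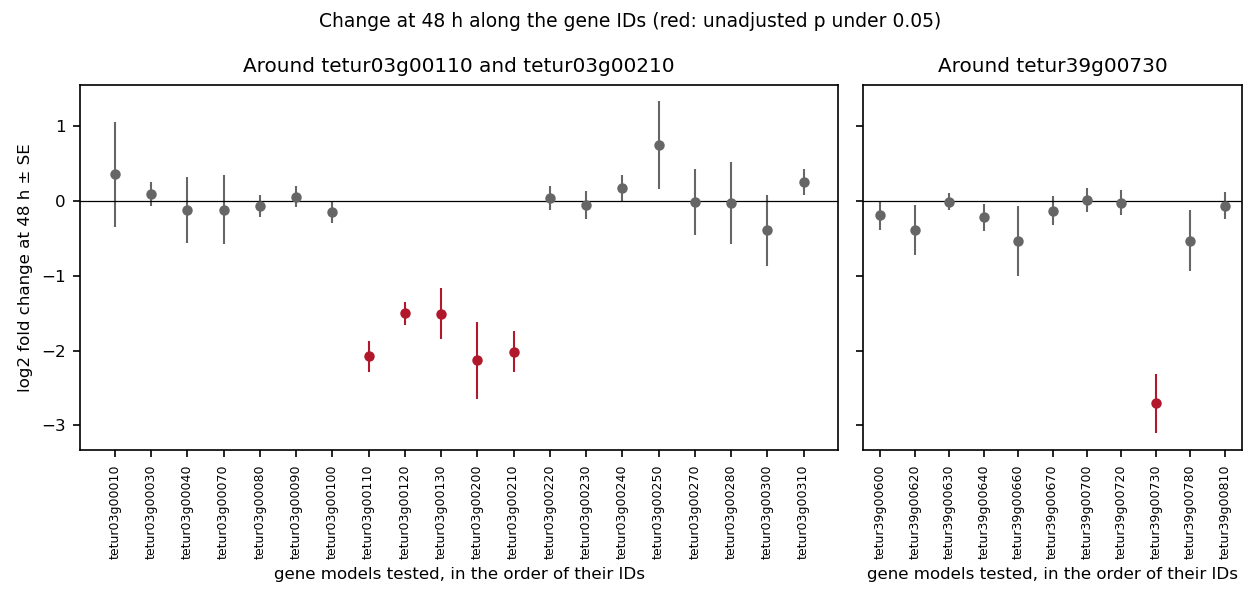
Log2 fold change at 48 h with its standard error for tested gene models in the order of their identifiers, around tetur03g00110 and tetur03g00210 (left) and around the vitellogenin 1 gene tetur39g00730 (right); red marks an unadjusted p under 0.05. On the left 5 consecutive tested models lie between -2.13 and -1.51. On the right only tetur39g00730 is marked red, at -2.71, and the 10 models around it lie between -0.54 and 0.01.

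The lower genes outside the list were led by the guanylate kinase gene tetur07g05920 (336 bp), whose product makes GDP from GMP. It was counted at 295.0 and 248.7 reads with solvent and at 20.4 and 0 with curcumin. The difference was the widest among the 10 lower genes named by the rule, but it rested on a group with 1 library at 0. The log2 fold change of -4.82 ± 0.62 (standard error) had an adjusted p of 0.0517 by edgeR and 0.0870 by DESeq2. Without the first curcumin library, which leaves the group at 0, the adjusted p was 0.0199 and the gene was at least 99.1-fold lower with a floor of 3 reads (the fitted log2 value of -11.19 is no bound). Without the second curcumin library the log2 fold change was -3.79 (adjusted p = 0.0772).

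Vitellogenin 1 (tetur39g00730, 1298 bp), a yolk protein precursor, had an RPKM of 23.9 and 10.9 in solvent-treated mites and 2.69 and 2.69 in curcumin-treated mites. The curcumin libraries were nearly equal and both below the solvent libraries, which differed by more than the curcumin level. The log2 fold change of -2.71 ± 0.40 (standard error) had an adjusted p of 0.0778 by edgeR and 1.24e-08 by DESeq2, and it was -1.97 without the first solvent library (adjusted p = 0.101 by edgeR) and -3.19 without the second (adjusted p = 0.00988, a call). The 10 tested gene models around it by identifier had a median log2 fold change of -0.16, with 9 below and 1 above 0. Of the 10, 0 had an unadjusted p under 0.05, against 7.78% of all genes. Among them tetur39g00700, tetur39g00720 and tetur39g00810 were far more abundant than tetur39g00730, with an RPKM between 1021 and 5836. Their log2 fold changes were 0.01, -0.02 and -0.06. The fall in tetur39g00730 is thus that of a gene model at a low level.

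The study also designed qRT-PCR primers for these genes. The pairs for the lower genes tetur08g07940 and tetur07g05920, and for tetur02g00040, which is described below, are printed because they fix which stretch of each transcript can be followed by PCR; the qRT-PCR values are not analysed here. Sequences run 5′ to 3′, and each pair is given as forward and reverse primer.
tetur08g07940 forward: cgatcattcaagaggcgata
tetur08g07940 reverse: ttgatggacttggttggtca
tetur07g05920 forward: cttcacaagtcgtgccaagc
tetur07g05920 reverse: ttgtcaaaatgatggccaaa
tetur02g00040 forward: ccaaacttgggtcttcaagtattc
tetur02g00040 reverse: gcccaaagaagtgaatcaaa

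The remaining lower genes named by the rule changed less and were measured tightly. tetur01g07670 (330 bp) had an RPKM of 240.2 and 255.6 with solvent and 134.0 and 138.6 with curcumin, a log2 fold change of -0.85 (adjusted p = 0.0528 by edgeR). tetur01g05880 (423 bp) and tetur02g15186 (303 bp) had log2 fold changes of -1.45 and -0.82, each with an adjusted p of 0.0778 by edgeR. DESeq2 called 9 of the 10 lower genes, all but guanylate kinase, against 0.344% of all genes called lower. The 10 were picked by their p in edgeR on the same libraries, so this count is not independent evidence.

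The gene called higher, tetur01g04020, is a long gene model of 3519 bp that the study describes as a hypothetical protein. Its RPKM was 20.1 and 22.9 in the solvent libraries and 58.5 and 47.5 in the curcumin libraries. Both curcumin libraries were more than 2 times the solvent level, at 53.0 ± 7.77 (SD, n = 2) against 21.5 ± 1.96 (SD, n = 2). The log2 fold change of 1.32 ± 0.16 (standard error) was called at an adjusted p of 0.0357 by edgeR, and 0.00820% of the genes tested were called higher. The call was lost without any 1 of the 8 libraries, with adjusted p from 0.0593 to 0.112 by edgeR, while the log2 fold change stayed between 1.12 and 1.49.

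The other 9 higher genes named by the rule had log2 fold changes from 0.83 to 2.03 and adjusted p from 0.0778 to 0.0951 by edgeR, so none passed. tetur01g16874 (807 bp), which the study lists for lysine degradation and for transcriptional misregulation in cancer, was by far the most abundant. Its RPKM was 1652 and 1884 with solvent and 4603 and 3469 with curcumin, a log2 fold change of 1.21 (adjusted p = 0.0778). tetur03g10143 (1308 bp), listed by the study for transcriptional misregulation in cancer, had an RPKM of 226.8 and 257.2 against 555.5 and 455.6, a log2 fold change of 1.08 (adjusted p = 0.0778).

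The lowest of the 10 in level was tetur22g02040 (1166 bp), with an RPKM of 2.19 and 1.41 against 8.30 and 6.51 and a log2 fold change of 2.03. tetur29g01430 (294 bp) was the shortest and had 29.8 and 34.2 reads against 94.9 and 99.6, a log2 fold change of 1.53. tetur01g16884, tetur03g09921, tetur01g16320, tetur28g01030 and tetur12g00140 are gene models between 2726 and 3936 bp with log2 fold changes from 0.83 to 1.05. Of the 10 higher genes 6 were over 2000 bp and of the 10 lower genes 0 were, while 3285 of the 12193 genes tested were; among all genes over 2000 bp, 58 were higher and 64 lower at an unadjusted p under 0.05. In all 10 higher genes, whose libraries did not overlap by the rule that named them (16.7% of all genes did not overlap on the higher side), the first curcumin library had a higher CPM than the second. DESeq2 called all 10, against 0.230% of all genes called higher, but the 10 were picked by their p in edgeR on the same libraries.

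The study selected 13 genes at 48 h for their products among the genes it had called on these libraries, so counts over them are not independent evidence. Of the 13, 11 were over the length limit, and the test of edgeR called 0 of the 11, while 9 had an unadjusted p under 0.05 (7.78% of all genes) and DESeq2 called 4 (0.574% of all genes). On the lower side, the stress-associated ER protein 1 gene tetur28g01480 (195 bp), named for a protein that in mammals stabilizes membrane proteins during stress of the endoplasmic reticulum, had an RPKM of 299.3 and 504.9 against 162.7 and 204.9. Its log2 fold change of -1.11 had an adjusted p of 0.110 by edgeR and 6e-05 by DESeq2, and it was -0.74 without the second solvent library. tetur05g08080 (222 bp), described by the study as similar to gamma-aminobutyric acid, had 33.2 and 82.8 reads against 9.49 and 18.7, a log2 fold change of -2.10 (adjusted p = 0.330 by edgeR and 0.0360 by DESeq2).

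The SIFa neuropeptide precursor gene tetur22g02010 (180 bp), for a neuropeptide of arthropods, had 39.2 and 22.5 reads with solvent and 0.243 and 10.8 with curcumin, a log2 fold change of -2.58 (adjusted p = 0.520 by edgeR), and the curcumin libraries were far apart. Its fitted value was -1.63 when the first curcumin library was dropped and -8.05 when the second was, the latter against a library with under 1 read. The Ras GTPase gene tetur08g03710 (156 bp), of a family of signalling switches, had 19.0 and 3.19 reads with solvent and 0 in both curcumin libraries. A floor of 3 reads over the curcumin group makes this at least 7.80-fold lower (adjusted p = 0.535 by edgeR), a bound that rests on the first solvent library, since without it the value was 2.13-fold. It was 14.1-fold without the second solvent library, and 4.05-fold and 3.75-fold without the first and the second curcumin library.

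On the higher side, cystatin (tetur09g03650, 384 bp), an inhibitor of cysteine proteases, had an RPKM of 210.3 and 135.2 with solvent and 381.7 and 838.5 with curcumin. The second curcumin library was more than 2 times the first. The log2 fold change of 1.81 had an adjusted p of 0.168 by edgeR and 0.0462 by DESeq2, and it was 1.18 without the second curcumin library. The phospholipase C gene tetur05g03410 (330 bp), an enzyme of phosphatidylinositol signaling, had an RPKM of 4.99 and 8.24 against 22.2 and 14.5, a log2 fold change of 1.51 (adjusted p = 0.251).

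Calmodulin (tetur04g01900, 315 bp), the calcium sensor, had 0.506 and 0 reads with solvent and 54.1 and 13.6 with curcumin, with an adjusted p of 0.599 by edgeR. The tetur14g03800 gene (297 bp), described as like PMP1, had 6.92 and 5.94 reads with solvent and 75.6 and 0 with curcumin, so its curcumin libraries lay on either side of the solvent group. Its direction was that of the first curcumin library, and without it the sign turned. The selected genes tetur01g05810 (138 bp) and tetur04g07080 (135 bp) were at or under the length limit and were not tested.

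None of the most abundant transcripts was called. The 20 genes with the most reads held between 26.6% and 28.6% of the reads in each of the 4 libraries. Of the 20, 0 were called, 1 had an unadjusted p under 0.05 (7.78% of all genes) and the median log2 fold change was 0.03, with values from -0.35 to 0.59. tetur516g00020, with between 242300 and 310430 reads, had a log2 fold change of -0.28 (adjusted p = 0.799 by edgeR), and its groups overlapped in CPM after TMM scaling, though not in reads. The 5 genes with the highest RPKM (tetur18g03020, tetur01g02660, tetur09g03620, tetur516g00020 and tetur05g01100) had log2 fold changes between -0.35 and 0.64, and the adjusted p was at least 0.639. Of these 5, only tetur05g01100, at 0.64, had groups that did not overlap in CPM, with an unadjusted p of 0.0493 by edgeR.

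Some genes were listed in 1 group only. At 0 in both curcumin libraries were 433 gene models with reads in the solvent group, and 95 of them were listed in both solvent libraries. At 0 in both solvent libraries were 375, of which 101 were listed in both curcumin libraries. Most held few reads: with at least 10 reads in both libraries of the other group there were 2 genes lower and 1 higher.

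tetur02g00040 (183 bp) had 30.7 and 22.3 reads with solvent and 0 with curcumin, at least 18.6-fold lower (adjusted p = 0.0793 by edgeR and 0.00611 by DESeq2). tetur288g00010 (1017 bp) had 21.6 and 28.0 reads against 0, at least 17.4-fold lower (adjusted p = 0.330 and 0.0122). tetur03g03690 (878 bp) had 24.3 and 10.5 reads with curcumin and 0 with solvent, at least 11.0-fold higher (adjusted p = 0.413 and 0.0504). All 3 genes were picked from these values, so their direction, bounds and p-values are not independent evidence. With each library of 48 h left out in turn, the bounds ran from 8.94-fold to 22.7-fold for tetur02g00040, from 8.37-fold to 18.7-fold for tetur288g00010 and from 5.23-fold to 16.0-fold for tetur03g03690. The low ends came from dropping the second library of the group at 0, since the floor then stands over 1 library. tetur02g00040 is the only 1 of the 3 with 0 reads in both curcumin libraries at 24 h as well. At 24 h tetur288g00010 had 16.9 and 0 reads with solvent and 15.5 and 23.1 with curcumin, so it was also at 0 in a solvent library. tetur03g03690 had 25.7 and 9.45 reads with solvent and 0 and 7.66 with curcumin at 24 h. Its log2 fold change there was -2.02, opposite in sign to that at 48 h.

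A single library could also make a gene look absent. tetur05g06160 (381 bp) had 218.1 reads in the first solvent library and 0 in the other 3 libraries of 48 h, and tetur04g07240 (420 bp) had 148.1 reads in the first solvent library and 0 in the other 3. DESeq2 called tetur04g07240 (adjusted p = 0.00125) although its libraries overlapped and edgeR gave it an adjusted p of 0.814; both genes were picked from their values.

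The change at 48 h was then set beside that at 24 h, which has its own solvent libraries. The difference between both changes was tested as an interaction, and edgeR called 0 genes at an FDR of 0.05, gave 992 genes an unadjusted p under 0.05 (8.14%) and DESeq2 called 55. The count by edgeR was 2 without the second solvent library of 48 h and 1 without the first curcumin library of 48 h. Across the 10474 genes with at least 20 reads on average at 48 h, the log2 fold changes at both times had a Pearson's r of -0.11 and a Spearman's rho of -0.03, where genes are not independent replicates.

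The lower genes of the list for protein processing in endoplasmic reticulum had negative values at both times. Their log2 fold changes at 24 h lay between -2.07, in tetur08g07940, and -1.15, in tetur03g00110. None was called at 24 h, where edgeR called 0 genes of 12193. All 6 had an unadjusted p under 0.05 by edgeR at 24 h, as had 440 of all genes on the lower side. The 6 were further from 0 at 48 h, by 0.17 to 0.93 on the log2 scale, with adjusted p for the difference of at least 0.399. The study named this pathway from its changed genes at both times, so the values at 24 h are not independent evidence either.

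The higher genes at 48 h showed log2 fold changes between 0.00 and 0.35 at 24 h, with 0 of the 10 at an unadjusted p under 0.05. Of the 12193 genes tested, 464 were past that limit on the higher side at 24 h and 440 on the lower side. The 10 were picked by their p at 48 h, so their smaller values at 24 h are not independent of the picking. For tetur01g04020 the change was 0.32 at 24 h and 1.32 at 48 h, a difference of 1.00 (standard error 0.22, adjusted p = 0.321). Vitellogenin 1 had opposite signs at the time points, 2.13 at 24 h and -2.71 at 48 h, a difference of -4.84 (standard error 0.58, adjusted p = 0.126 by edgeR). Guanylate kinase went from 0.65 to -4.82 (adjusted p of the difference 0.177).

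Other genes with unequal changes were named by the smallest p of the difference. tetur17g03540 (159 bp) had 0.62 at 24 h and -0.56 at 48 h (adjusted p = 0.126 by edgeR). tetur13g03240 (336 bp) had -0.40 and 0.72, tetur36g00010 (636 bp) -1.60 and 1.40, and tetur54g00060 (393 bp) -2.16 and 0.86, all with an adjusted p of 0.222. In these genes the sign of the change turned between 24 h and 48 h, but the differences did not pass the threshold.

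Of the 440 genes with an unadjusted p under 0.05 on the lower side at 24 h, 41 were higher (9.32%) and 31 lower (7.05%) at 48 h by the same limit, against 3.40% and 4.38% of all genes. Of the 464 on the higher side at 24 h, 25 were higher (5.39%) and 55 lower (11.9%) at 48 h. Their median log2 fold changes at 48 h were 0.04 and -0.03. In both sets more genes had the opposite direction at 48 h than the same direction, and the cause was not tested. Both times share the same estimate of the spread of each gene, so the shares are not independent of the picking.

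**Figure D3:**
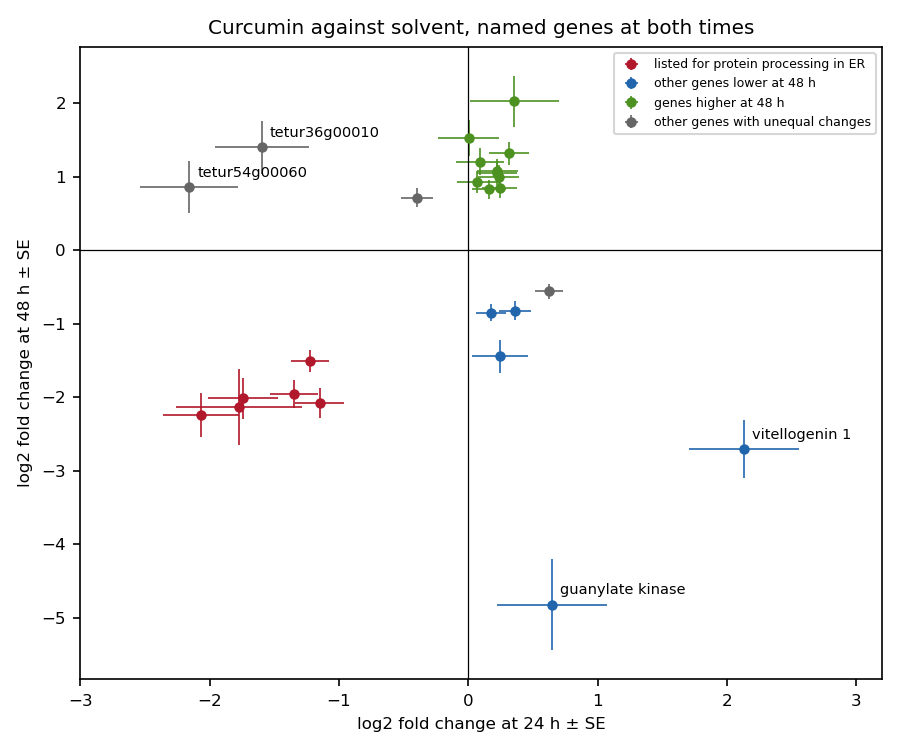
Log2 fold change with its standard error at 24 h (horizontal) and at 48 h (vertical) for the named genes. The 6 lower genes of the list for protein processing in endoplasmic reticulum are below 0 at both times. The 10 higher genes, picked by their p at 48 h, lie between 0.00 and 0.35 at 24 h, and vitellogenin 1 is at 2.13 and -2.71.

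Across all genes, the spread of the changes followed how much was counted. Of the genes with under 20 reads on average, 18.6% had an absolute log2 fold change above 1, against 4.08% at 20 to 100 reads, 0.630% at 100 to 500 reads and 0.225% at 500 to 2000 reads. Of the genes over 2000 reads, 0.353% did. The median in every class lay between -0.03 and 0.01.

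**Figure D4:**
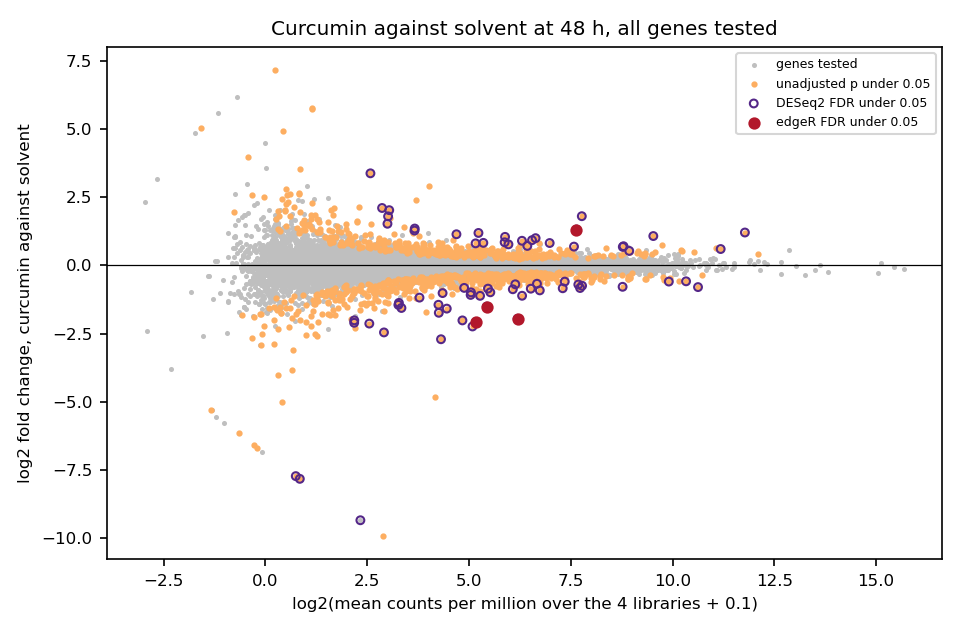
Log2 fold change at 48 h against the log2 of the mean CPM plus 0.1 for the 12193 genes tested; orange marks an unadjusted p under 0.05, purple rings an FDR under 0.05 by DESeq2 and red points the 4 genes called by edgeR. The spread narrows from low to high expression, and the red points lie outside the band of genes of their level.

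Gene length showed the same. Of the 239 gene models of up to 200 bp, 23.8% were past an absolute log2 fold change of 1, and of the 3285 over 2000 bp, 0.548% were. The median log2 fold change was -0.06 up to 200 bp, 0.12 from there to 300 bp and 0.01 over 2000 bp. Of the gene models over 200 and up to 300 bp, 7.85% were higher and 3.93% lower at an unadjusted p under 0.05, and of those over 500 and up to 1000 bp 3.99% were higher and 6.93% lower. The median length was 1357 bp over all genes tested, 1044 bp for the 415 higher genes and 958.5 bp for the 534 lower genes.

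The 34 tested gene models that were at most 10 bp over the length limit included 0 called genes. An unadjusted p under 0.05 was found for 2 on the higher side (5.88%, against 3.40% of all genes) and 0 on the lower side (against 4.38%), too few models to read a direction from. At or under the limit, the solvent libraries listed 20 and 29 gene models and the curcumin libraries 77 and 84. The shortest gene model listed was 141 and 140 bp with solvent and 132 and 131 bp with curcumin, so for these lengths the listing and the treatment cannot be told apart. By the study's sequencing totals, reads of the curcumin libraries of 48 h were also shorter on average than those of the solvent libraries, and the part of read length in the listing was not tested.

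**Figure D5:**
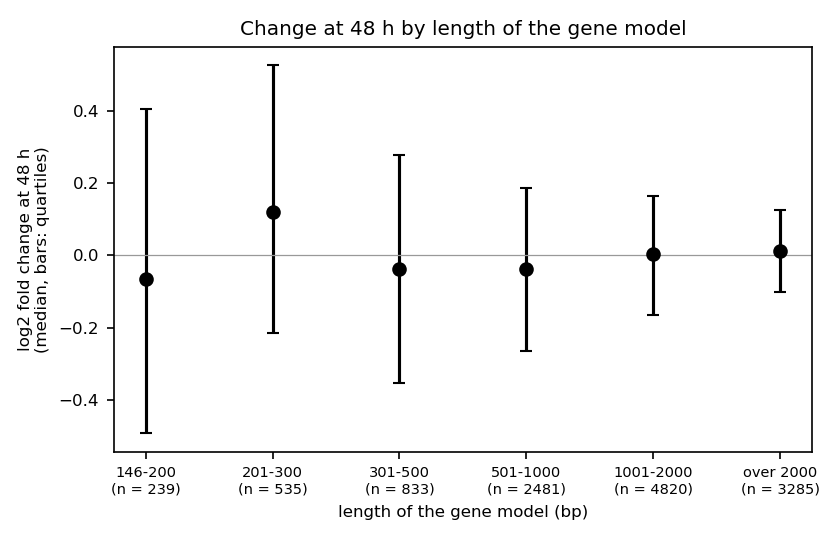
Median log2 fold change at 48 h (points) with quartiles (bars) by length of the gene model in bp, with the number of genes tested under each class. The bars narrow with length, and the medians lie between -0.06 and 0.12.

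The 70 genes that DESeq2 called had a median length of 824.5 bp and a median absolute log2 fold change of 1.08. Of these 70, 69 showed no overlap of both treatments, against 34.0% of all genes tested. An unadjusted p under 0.05 by edgeR was found for 69, against 7.78% of all genes. Both counts come from the same libraries as the calls by DESeq2, so they are not independent evidence. The highest log2 fold change among the 70 belonged to tetur68g00050, a gene that the study lists under binding. It had 10.6 and 5.29 reads with solvent and 27.1 and 156.2 with curcumin. Its log2 fold change of 3.38 had an adjusted p of 0.00270 by DESeq2 and 0.270 by edgeR, and the second curcumin library held most of its reads; it was picked from its values.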

How the data were processed

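By the study's methods, polyA RNA of pooled mites was sequenced single-end on the Ion Proton, and T-Map placed the reads on the genome of T. urticae. The expected count that the authors deposited is an estimated read number for each gene, not scaled for depth or length. The authors deposited the RPKM beside it, scaled for length and mapped reads. Only genes above 0 were listed; others were taken as 0. The sources used here do not name the counting tool.

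Estimated reads of gene models over 145 bp were rounded and fitted by the robust quasi-likelihood method of edgeR 4.0.16 under R 4.3.3 (TMM scaling, filterByExpr, 8 libraries, 4 groups, 4 residual degrees of freedom, common biological coefficient of variation 0.140), with Benjamini-Hochberg adjustment over 12193 genes and calls at an FDR of 0.05. P-values measure the spread between these libraries. Alternatives were DESeq2 1.42.0 and limma 3.58.1, other filters and scaling, and each library left out. Tests were tried on simulated data. Floors were 3 reads over a group and cover counting error only. Python 3.11.15 with pandas 2.3.3 made the other values.

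Named genes were those called, then up to 10 per direction with the smallest p, no overlap and 20 or more reads on average, the study's selected and listed genes, their neighbours by identifier, the 5 highest in RPKM and those with the smallest p of the difference. Members and lists were chosen with earlier results of these data known. The authors' fold changes and p-values in the supplement were not used.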

Additional observations from a re-analysis of the deposited data

Results flagged for a closer look

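Gene models at or under the length limit, which the comparison left out, were listed more often in the curcumin libraries of 48 h than in the solvent libraries of 48 h. There were 77 in the first and 84 in the second curcumin library, against 20 and 29 in the solvent libraries. Of 97 such models listed at 48 h, 49 were in both curcumin libraries and neither solvent library, the longest of them 144 bp. The reads on these models came to 3937 and 5612 in the curcumin libraries and 803.6 and 1709 in the solvent libraries. The shortest model listed was also shorter in the curcumin libraries, as were the reads on average by the study's sequencing totals, and the part of read length in the difference was not tested.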

How the results depend on the processing

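The count of 4 genes called at 48 h became 70 by DESeq2, 15 with scaling by library size only, 1 with only the 4 libraries of 48 h, 1 by limma on log2(RPKM + 1) and 1 on log2(RPKM + 0.1), 8 with gene models over 200 bp and 22 with gene models of every length, 9 of them at or under the length limit. It was 0 at an FDR of 0.001 with an absolute log2 fold change of 1. With 1 library left out it ran from 0, without the second 48 h curcumin library, to 7, when the first solvent library at 48 h was dropped, with 1, guanylate kinase, when the first curcumin library at 48 h was dropped. Of the 39 named genes, those past the threshold went from 4 to 24 by DESeq2, 15 with library size only, 1 with the 4 libraries of 48 h, 0 by limma with either pseudocount, 8 over 200 bp and 13 at every length, and 0 to 5 with 1 library left out. The difference between 48 h and 24 h went from 0 genes to 55 by DESeq2, and 0 to 2 with 1 library left out (2 when the second 48 h solvent library was dropped, 1 when the first 48 h curcumin library was). The sign turned for tetur14g03800 (-0.45 by limma on log2(RPKM + 0.1), -5.82 to 3.50 with 1 library left out, the lowest without the first 48 h curcumin library), tetur09g03620 (-0.64 to 0.018, the highest without the first 48 h solvent library) and tetur01g02660 (-0.18 to 0.59, the lowest without the second 48 h solvent library). Among single genes, 616 values kept their side of the threshold, 49 passed it newly, 27 no longer passed and 4 turned. Lower bounds for genes at 0 were also taken without each library, a setting chosen after seeing the data. The cause of these shifts was not tested. With the replicate number as a block, 5 genes were called, the 4 and guanylate kinase (adjusted p = 0.0498 by edgeR). Replicates with the same number deviated together with correlations from -0.08 to 0.17, so the numbers were not read as pairs. Scaling by library size moved the median of all genes by 0.00. The 2 libraries a group and their depth limit genes with few reads.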
